A study of Mus musculus with 9 samples.

Results

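Ion channels and ionotropic receptors are the membrane proteins that let ions cross the plasma membrane of excitable cells. Their genes were taken by symbol, from the families of K+ channels (Kcn), voltage-gated Na+ channels (Scn), voltage-gated Ca2+ channels (Cacna, Cacnb and Cacng), HCN channels (Hcn), ionotropic glutamate receptors (Gria, Grid, Grik and Grin) and GABA-A receptors (Gabr). The symbol pattern found 180 of the 24318 genes. Removing Kcnq1ot1, Grin1os and Kcnd3os, which are noncoding transcripts beside channel genes, left 177 members. Kcnmb4os1 and Kcnmb4os2 stayed in because their symbols do not end in the letters that the rule removes, and the Na+ channel gene Scn2a1 fell outside the pattern.

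The RNA came from N2A cells, a mouse neuroblastoma line, transfected with a scramble negative control siRNA (siScramble), an siRNA against EXOSC3 (siEXOSC3) or an siRNA against DDX1 (siDDX1), with 3 libraries per group and 9 in all. The labels give siScramble cells as WT and all 9 samples as otherwise untreated, and each biological replicate was a separately seeded plate of this 1 cell line. EXOSC3 is a cap subunit of the RNA exosome, the complex that processes and degrades RNA from its 3′ end, and DDX1 is a putative RNA helicase. Libraries were made from rRNA-depleted total RNA with a nondirectional kit, so reads from a gene and a partner on the opposite strand cannot be told apart. Values are FPKM, fragments scaled by transcript length and by the fragments mapped in a library. They were deposited in 2 tables, 1 per knockdown, each holding its own scaling of the same 3 siScramble libraries.

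Channel genes are usually read by the role of their products. Pore-forming alpha subunits set which ion passes and at which voltage the gate opens, auxiliary subunits change gating and carry the pore to the membrane, and the glutamate and GABA-A receptors open when a transmitter binds. Which of these genes a neuronal cell transcribes goes far in setting how it fires. N2A cells divide in culture and are not mature neurons.

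The targeted transcripts were examined first. Exosc3 stood at 45.8, 43.8 and 42.7 FPKM in siScramble and at 6.84, 7.68 and 6.01 FPKM in siEXOSC3. Ddx1 stood at 130, 126 and 119 FPKM in the siScramble libraries of the siDDX1 table and at 28.1, 28.7 and 34.8 FPKM in siDDX1. Absolute depth cannot be read from FPKM, and relative to siScramble replicate 1 the depth of the other libraries ranged from 0.83 to 1.2. Of the markers of neuroblastoma and sympathoadrenal cells, 10 of 12 had a mean of at least 1 FPKM, and of neuronal markers 6 of 9. Of the markers of glia, leukocytes, fibroblasts, endothelium and muscle, Aqp4, Mag, Col1a2, Kdr, Myod1 and Ckm were listed at 0 in every library of both tables, and Mbp, Pecam1 and Actn2 alone reached 1 FPKM. Pecam1, an adhesion protein of endothelium, stood at 7.28 FPKM in siEXOSC3 and 4.13 FPKM in siScramble. The summed level of the neuronal markers was 345 to 352 FPKM in siEXOSC3 against 215 to 228 FPKM in siScramble, and that of the neuroblastoma markers 792 to 882 FPKM against 477 to 527 FPKM. In the siDDX1 table the neuronal sum was 228 to 244 FPKM against 213 to 225 FPKM, and the neuroblastoma sum 464 to 539 FPKM against 473 to 520 FPKM. The part of these shifts in the channel results was not tested, and in bulk RNA more cells that express a gene cannot be told apart from more of its RNA per cell.

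Most of the 177 genes were close to silent in control cells. In the table of siEXOSC3, 54 members were listed at 0 in all 6 libraries, and 33 had a siScramble mean of at least 1 FPKM. Only 7 members reached 10 FPKM there. Among them were the cytoplasmic Ca2+ channel subunit gene Cacnb3, the ERG K+ channel gene Kcnh2, the Na+ channel beta subunit gene Scn3b, the TARP genes Cacng7 and Cacng3, and Scn9a, a peripheral-type Na+ channel alpha subunit. Cacnb3 and Kcnh2, neighbours in that order, lay within the spread of their libraries, since Cacnb3 ranged from 14.4 to 16.4 FPKM and Kcnh2 from 15.0 to 16.8 FPKM.

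The role groups differed in how many genes N2A cells used. Each of the Ca2+ channel beta, gamma and alpha1 groups and the HCN group held several genes above 1 FPKM, whereas 9 of 19 GABA-A receptor subunits and 14 of 40 voltage-gated K+ channel subunits were listed at 0 throughout. Among the glutamate receptors, Grik5, a kainate receptor subunit, stood at 9.33 ± 0.539 FPKM (SD, n = 3), while both delta receptor genes were listed at 0. Gria2 was the highest AMPA receptor gene, at 0.474 FPKM in siScramble, and Cacna2d2 the highest of the alpha2delta genes, at 0.0997 FPKM.

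**Figure D1:**
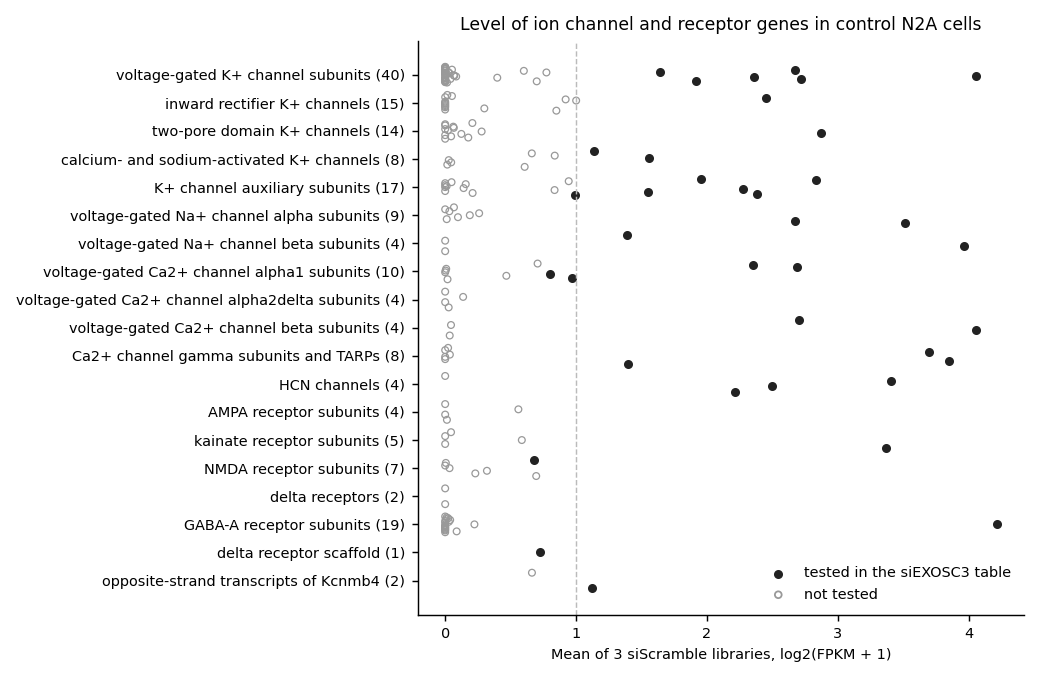
Mean level of each of the 177 members in the 3 siScramble libraries of the siEXOSC3 table, on the log2(FPKM + 1) axis, 1 row per role group with its number of genes in parentheses. Filled points passed the filter for testing, open points did not, and the dashed line marks 1 FPKM; most open points lie at or near 0.

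Each knockdown was compared with siScramble to find which genes changed upon depletion. The test was limma on log2(FPKM + 1) over all genes with a mean of at least 1 FPKM in the 6 libraries of a table, with a Benjamini-Hochberg adjusted p-value under 0.05 called increased or decreased. With 1 added to every FPKM, the fold change of a weakly expressed gene comes out too small. In siEXOSC3, 37 of the 177 members could be tested, and 21 of the 37 (56.8%) increased. Over all 11242 genes tested, 16.7% increased. No member decreased, while 15.7% of all genes did. At an unadjusted p under 0.05, 23 of the 37 members had a positive fold change, against 22% of all genes. The count of members with a negative fold change at that threshold was also 0, against 23.4% of all genes. The median log2 fold change was 0.46 over the 37 members and -0.01 over all genes tested, with 32 members positive and 5 negative. The summed level of the 37 members was 279.9, 268.1 and 306.6 FPKM in siEXOSC3 and 200.1, 214.4 and 210.1 FPKM in siScramble.

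The count was also read against genes of like level. Among the 6709 genes whose mean FPKM was no higher than that of the highest member (19.1 FPKM), 18.1% increased and 14.3% decreased. Cacna1g, Cacna1i, Grid2ip, Grin1 and Kcnrg had a siScramble mean under 1 FPKM and passed the filter through their level in siEXOSC3; all but Kcnrg increased. Of the 32 tested members with a siScramble mean of at least 1 FPKM, 17 (53.1%) increased. The other member at that siScramble level, Kcnj14, was lower in siEXOSC3 and fell under the filter over the 6 libraries. With the filter set on the siScramble mean alone, 17 of 33 members (51.5%) increased, and 1781 of all 11106 genes (16%) did. All 3 siEXOSC3 libraries lay above all 3 siScramble libraries in 25 of the 37 members, against 23.8% of all genes, and below them in 1 member, Scn8a, against 25.9% of all genes.

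The count did not rest on a single library. It ranged from 16 to 21 when each library was left out in turn, or 43.2% to 56.8% of the members, while the share of all genes ranged from 9.12% to 21.2%. It was 21 without siEXOSC3 replicate 3, although that library was the highest of the 3 in 17 of the 21 increased members. Hcn3 lost the call on leaving out siEXOSC3 replicate 1 or any of the 3 siScramble libraries, Grid2ip on leaving out siEXOSC3 replicate 1 or siScramble replicate 1 or 2, and Kcnk3, Kcnma1 and Kcnj12 in some of these cases. In all, 15 members kept the call throughout.

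**Figure D2:**
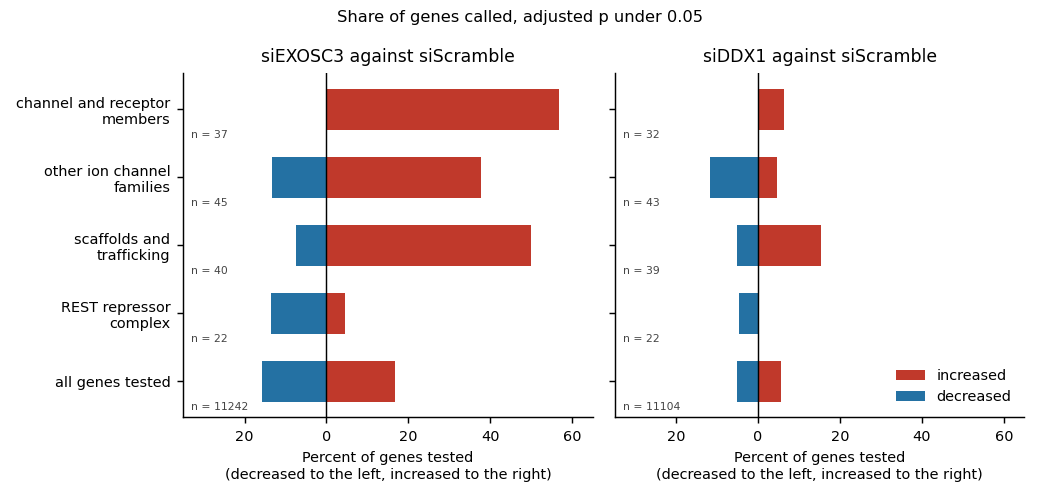
Percent of the tested genes that increased (right of 0) or decreased (left of 0) at an adjusted p under 0.05, for the channel and receptor members, 3 related gene lists and all genes tested, with the number tested beside each row. In siEXOSC3 the members reach 56.8% increased with no decrease, against 16.7% and 15.7% of all genes; in siDDX1 they stand at 6.25% against 5.61%.

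Ca2+ channel subunits held the member with the largest log2 fold change of all. Cacnb1 encodes a beta subunit, the cytoplasmic partner that brings the alpha1 pore to the membrane and shapes its gating. It lies on the minus strand of chromosome 11, from 97862822 to 97884348 in NCBIM37 (mm9). Gm11629, a processed transcript on the opposite strand, overlaps it and has no FPKM value here. The nearest neighbour with values is Rpl19 (3676 bases away, log2 fold change 0.10, adjusted p = 0.465). Cacnb1 stood at 5.66, 5.29 and 5.62 FPKM in siScramble and at 13.8, 12.8 and 18.3 FPKM in siEXOSC3. The groups did not overlap, and every siEXOSC3 library was more than double the highest control. The mean rose 2.71-fold, a log2 fold change of 1.27 ± 0.123 (SE), with an adjusted p of 0.000732. The other tested beta subunit gene, Cacnb3, did not move with it, at 14.4, 16.4 and 16.2 FPKM against 14.9, 14.9 and 17.0 FPKM.

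The promoter windows are shown for Cacnb1, which had the largest change, and for Kcnab1 and Kcnn3, which increased in both knockdowns. Each runs from 250 bases before to 50 bases after the most upstream start that RefSeq lists on GRCm38.p6, which is a later build than that of the tables. Capitals mark the GC box, GGGCGG on either strand, a motif bound by Sp-family factors. The windows are chr11:98022578-98022877 (minus strand), chr3:64948962-64949261 (plus strand) and chr3:89519914-89520213 (plus strand).
Cacnb1: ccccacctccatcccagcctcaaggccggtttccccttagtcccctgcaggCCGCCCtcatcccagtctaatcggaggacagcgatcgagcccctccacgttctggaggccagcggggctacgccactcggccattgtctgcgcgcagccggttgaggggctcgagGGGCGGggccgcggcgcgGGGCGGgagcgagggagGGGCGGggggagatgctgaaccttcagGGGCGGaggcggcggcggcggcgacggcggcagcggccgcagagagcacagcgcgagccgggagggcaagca
Kcnab1: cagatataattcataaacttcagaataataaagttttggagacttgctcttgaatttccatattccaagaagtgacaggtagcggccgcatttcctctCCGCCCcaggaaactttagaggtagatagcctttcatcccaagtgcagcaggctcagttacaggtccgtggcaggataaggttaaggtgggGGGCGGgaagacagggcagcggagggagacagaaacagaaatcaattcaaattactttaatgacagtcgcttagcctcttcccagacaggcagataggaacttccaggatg
Kcnn3: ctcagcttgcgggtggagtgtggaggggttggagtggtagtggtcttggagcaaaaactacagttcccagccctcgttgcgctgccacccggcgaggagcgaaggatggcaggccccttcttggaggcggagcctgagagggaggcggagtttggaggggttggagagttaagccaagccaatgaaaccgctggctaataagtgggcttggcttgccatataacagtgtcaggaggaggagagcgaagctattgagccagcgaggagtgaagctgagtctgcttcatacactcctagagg
The Cacnb1 window holds 5 GC boxes at 73.7% G + C, the Kcnab1 window 2 at 46.7%, and the Kcnn3 window none at 57.7%. RefSeq windows were matched by symbol for 28 of the 37 tested members, 15 of them increased.

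Over all their listed starts, 9 of the 15 increased members (60%) and 9 of the 13 tested members that did not increase (69.2%) held a GC box, against 70.8% of the genes tested in siEXOSC3 that had a window and 38.2% of all 27025 genes of the table. A cyclic AMP response element, TGACGTCA, was in none of the members' 41 windows, against 3.37% of the windows of genes tested in siEXOSC3 and 1.79% of all windows. The left arm (TTCAGCACC) and the right arm (GGACAGCGC) of the REST site were also in none of the 41, against 0.428% and 0.692% of the windows of tested genes and 0.371% and 0.405% of all windows. At shares this low, 41 windows are too few for an absence to be informative, and only exact letters were searched. No conclusion is drawn from the absence of these elements. A TATA box, TATAAA, was in 1 of the 41 windows, that of a Kcnab1 start, in 6.47% of the windows of tested genes and in 13.6% of all windows. All motifs were searched on both strands, and no motif of the set contains another.

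Of the alpha1 pores, Cacna1b, Cacna1g and Cacna1i increased in siEXOSC3. Cacna1b, the N-type pore of presynaptic terminals, stood at 3.99, 4.25 and 4.12 FPKM in siScramble and at 6.16, 5.30 and 6.69 FPKM in siEXOSC3, a log2 fold change of 0.46 (adjusted p = 0.0099). Cacna1g and Cacna1i encode T-type pores, which open at low voltage. Cacna1g stood at 0.676, 0.722 and 0.827 FPKM in siScramble and at 1.68, 1.55 and 1.74 FPKM in siEXOSC3, a 2.23-fold difference in the mean (adjusted p = 0.00563). Cacna1i stood at 0.839, 0.865 and 1.16 FPKM in siScramble and at 1.92, 1.67 and 2.07 FPKM in siEXOSC3, a 1.98-fold difference (adjusted p = 0.00998). The groups of all 3 genes were separate. The L-type pore gene Cacna1c was also above siScramble in all 3 libraries, at 6.15 to 6.39 against 5.19 to 5.82 FPKM, but was not called (adjusted p = 0.103). Its locus overlaps that of Dcp1b on the opposite strand, which stood at 2.12 FPKM in siEXOSC3 and 1.88 FPKM in siScramble.

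All 3 tested members of the gamma and TARP group increased. TARPs are auxiliary subunits that carry AMPA receptors to the synapse, and Cacng3, Cacng7 and Cacng8 belong to them. Cacng3 stood at 12, 12.8 and 11 FPKM in siScramble and at 19.9, 17.8 and 19.8 FPKM in siEXOSC3 (log2 fold change 0.64, adjusted p = 0.00186). Cacng8 stood at 1.25, 2.11 and 1.56 FPKM in siScramble and at 3.72, 3.32 and 4.35 FPKM in siEXOSC3 (log2 fold change 0.87, adjusted p = 0.00416). Cacng7, beside it on chromosome 7, went from a mean of 13.4 ± 1.02 to 18.6 ± 1.15 FPKM (SD, n = 3 each, log2 fold change 0.45, adjusted p = 0.00577). The summed level of the group rose from 24.9 to 28.6 FPKM over the siScramble libraries to 39.2 to 44.4 FPKM in siEXOSC3. The AMPA receptor genes that these proteins serve were too low to test.

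**Figure D3:**
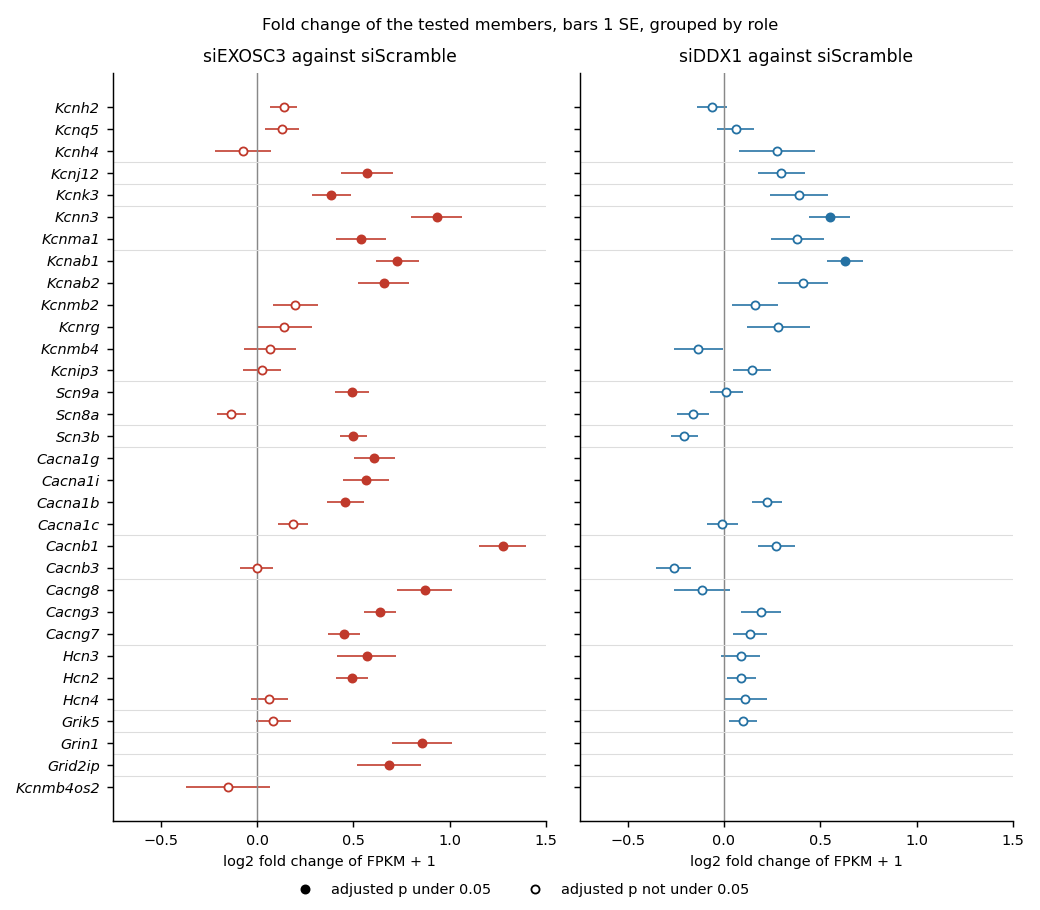
Log2 fold change of FPKM + 1 (points) with 1 SE (bars) for members tested in the siEXOSC3 table, ordered by role group, in siEXOSC3 (left) and siDDX1 (right). Filled points are adjusted p-values under 0.05; members without a point on the right were under 1 FPKM on average in the siDDX1 table. The filled points on the left run from 0.39 for Kcnk3 to 1.27 for Cacnb1, and on the right only Kcnab1 and Kcnn3 are filled.

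Both tested genes of the calcium-activated K+ channel group increased. Kcnn3 encodes the small-conductance channel that follows a spike with a slow hyperpolarization. It lies on the plus strand of chromosome 3, from 89324086 to 89471683 in NCBIM37, and stood at 1.65, 2.25 and 1.93 FPKM in siScramble and at 5.14, 3.74 and 5.01 FPKM in siEXOSC3. The groups were well apart, and the mean was 2.38-fold higher (log2 fold change 0.93 ± 0.131 (SE), adjusted p = 0.00265). Kcnma1, the large-conductance BK pore, stood at 1.35, 1.33 and 0.922 FPKM in siScramble and at 2.48, 1.81 and 2.30 FPKM in siEXOSC3 (log2 fold change 0.54, adjusted p = 0.0173). The BK beta subunit genes Kcnmb2 and Kcnmb4 overlapped their controls, with log2 fold changes of 0.20 and 0.07.

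The Kv beta subunits Kcnab1 and Kcnab2, cytoplasmic partners of Shaker-type channels, both increased. Kcnab1 lies on the plus strand of chromosome 3, from 64913306 to 65182145 in NCBIM37. It stood at 2.80, 2.94 and 2.92 FPKM in siScramble and at 5.09, 6.49 and 4.83 FPKM in siEXOSC3 (log2 fold change 0.73 ± 0.111 (SE), adjusted p = 0.00329). Kcnab2 stood at 5.59, 7.21 and 5.60 FPKM in siScramble and at 9.78, 8.79 and 12.3 FPKM in siEXOSC3 (log2 fold change 0.66, adjusted p = 0.00889). Neither gene overlapped its controls. A730090N16Rik overlaps the Kcnab1 locus on the opposite strand (mean 0.574 FPKM in siEXOSC3 and 0.673 FPKM in siScramble). Kcnab2 shares its locus with Nphp4 on the opposite strand (log2 fold change 0.02) and lies 548 bases from Chd5, which also increased (log2 fold change 0.81, adjusted p = 0.00406). Of the other auxiliary genes, Kcnip3, a calcium-binding partner of A-type channels, and Kcnrg had log2 fold changes of 0.03 and 0.14 and were not called.

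Among the voltage-gated K+ channel subunits themselves, 1 of 6 tested genes increased, the same share as over all genes (16.7%). Kcnq5, a pore of the M-type channel family, was above siScramble in all 3 libraries, at 3.02 to 3.23 against 2.60 to 2.90 FPKM, without a call (adjusted p = 0.294). Kcnh2, the highest of the group, stood at 15.2, 15.0 and 16.8 FPKM in siScramble and at 16.9, 17.8 and 17.1 FPKM in siEXOSC3 (adjusted p = 0.166). Kcnh4, an ELK-type pore, overlapped its controls (log2 fold change -0.07). The groups with 1 tested gene each, the inward rectifier Kcnj12 and the K2P leak channel Kcnk3, increased with log2 fold changes of 0.57 (adjusted p = 0.0149) and 0.39 (adjusted p = 0.0213).

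The beta subunits of Na+ channels are single-pass proteins that tune the gating of the alpha pore and also act in adhesion. Scn3b, on the plus strand of chromosome 9 from 40076801 to 40099203 in NCBIM37, stood at 14.5, 14.2 and 15.1 FPKM in siScramble and at 21.2, 19.8 and 22.3 FPKM in siEXOSC3 (log2 fold change 0.50 ± 0.0707 (SE), adjusted p = 0.00268). Gramd1b, 1615 bases away on the opposite strand, increased as well (log2 fold change 0.36, adjusted p = 0.00779).

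Of the alpha pores, Scn9a stood at 9.70, 11.2 and 10.4 FPKM in siScramble and at 14.8, 13.8 and 16.7 FPKM in siEXOSC3 (log2 fold change 0.49, adjusted p = 0.00622). Scn8a, an alpha pore of the axon initial segment, went the other way without a call. It stood at 5.38, 5.47 and 5.31 FPKM in siScramble and at 4.87, 4.90 and 4.70 FPKM in siEXOSC3 (log2 fold change -0.13, adjusted p = 0.199). Scn2a1, which the symbol pattern leaves out, stood at 1.01, 0.927 and 0.691 FPKM in siScramble and at 1.74, 1.39 and 2.35 FPKM in siEXOSC3 and increased (log2 fold change 0.58, adjusted p = 0.02). Its siScramble mean was 0.875 FPKM, so it too passed the filter through its level in siEXOSC3. It counts in the list of other ion channel families.

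HCN channels carry the pacemaker current that hyperpolarization turns on. Hcn2 stood at 9.03, 9.68 and 10.1 FPKM in siScramble and at 13.5, 13.1 and 15.2 FPKM in siEXOSC3 (log2 fold change 0.49, adjusted p = 0.00433). Hcn3 stood at 3.95, 4.82 and 5.15 FPKM in siScramble and at 6.77, 6.11 and 9.45 FPKM in siEXOSC3 (log2 fold change 0.57, adjusted p = 0.0229). The remaining tested gene, Hcn4, overlapped its controls, at 3.68 to 4.0 against 3.18 to 3.88 FPKM. Bsg, 4655 bases from Hcn2 on the same strand, also increased (log2 fold change 0.58, adjusted p = 0.00877).

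Few transmitter receptors could be tested. Grin1 encodes the subunit that every NMDA receptor needs. It stood at 0.545, 0.602 and 0.642 FPKM in siScramble and at 1.59, 1.56 and 2.64 FPKM in siEXOSC3, the largest ratio of means among the increased members at 3.24-fold (log2 fold change 0.86, adjusted p = 0.00594). Its level stayed low even so, below 3 FPKM. The processed transcript E130003G02Rik overlaps the Grin1 locus on the opposite strand, and its reads cannot be told apart from those of Grin1. Grid2ip, a scaffold that binds the delta receptor and entered by its symbol, stood at 0.419, 0.592 and 0.942 FPKM in siScramble and at 1.73, 1.21 and 2.02 FPKM in siEXOSC3 (log2 fold change 0.68, adjusted p = 0.0164), with both delta receptor genes listed at 0.

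Grik5 overlapped its controls (log2 fold change 0.08). Kcnmb4os2, the only opposite-strand transcript tested, ranged from 0.647 to 1.87 FPKM in siScramble and from 0.618 to 1.29 FPKM in siEXOSC3, and its groups overlapped.

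**Figure D4:**
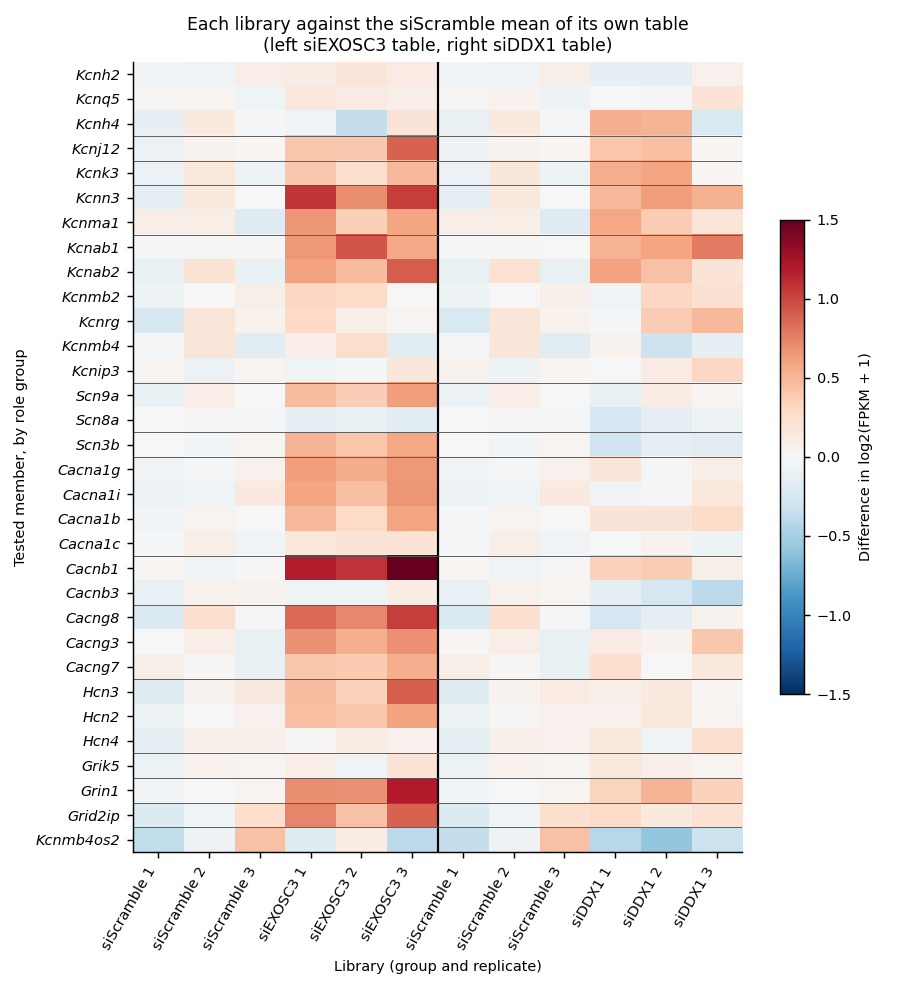
Difference in log2(FPKM + 1) between each library and the siScramble mean of its own table, for members tested in siEXOSC3 (rows, by role group) and the 6 libraries of each table (columns), with red above and blue below the controls. The siEXOSC3 columns are red in most rows; in siDDX1 the columns are paler in most rows, and replicate 3 is paler than the others in Kcnj12, Kcnk3 and Kcnh4.

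The 140 members that could not be tested in siEXOSC3 were looked at by level. Beside the 54 listed at 0, 86 had some signal, of which 51 had a higher mean in siEXOSC3 and 35 a lower one. Over all 5773 such low genes, 59.7% had a higher mean in siEXOSC3, close to the share of the members. Of these 86, 16 were above all siScramble libraries (14% of all such low genes were) and 2 were below them (4.99% of such genes). Genes chosen here after their values were seen include Scn3a, an alpha pore best known from the developing brain, at 0.200, 0.191 and 0.200 FPKM in siScramble and 0.683, 0.638 and 0.699 FPKM in siEXOSC3. Gria2 stood at 0.488, 0.328 and 0.605 FPKM in siScramble and 0.896, 0.807 and 1.33 FPKM in siEXOSC3. The inward rectifier Kcnj14, 1 of the 2 below all controls, stood at 0.98, 1.30 and 0.727 FPKM in siScramble. In siEXOSC3 it stood at 0.451, 0.621 and 0.361 FPKM. Its siScramble mean reached 1 FPKM, but its mean over the 6 libraries did not. At these levels a value may rest on few fragments, and no test was made.

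In siDDX1, 32 members could be tested, and 2 of them (6.25%) increased, against 5.61% of all 11104 genes. None decreased, against 5.03%. The members' share of increases was therefore close to the background. Among the 6259 genes no higher than the highest member, 4.81% increased and 5.26% decreased. At an unadjusted p under 0.05, 8 members had a positive and 2 a negative fold change (15.1% and 15.0% of all genes), the negative ones being Cacnb3 and Scn3b. All 3 siDDX1 libraries were above the controls in 5 members (17.0% of all genes) and below them in 3 (17.8% of all genes). The median log2 fold change was 0.10 over the members and -0.00059 over all genes. Without siDDX1 replicate 3 the count was 8 increased (25.0%, against 16.4% of all genes) and 1 decreased. Without siDDX1 replicate 2 it was 1 increased (1.53% of all genes), and without siScramble replicate 1 or 3 it was 0 (0.928% and 0.865% of all genes). Without siDDX1 replicate 1 or siScramble replicate 2 the members stayed at 2 increased, while the share of all genes was 2.06% and 2.57%.

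The 2 increased genes were the Kv beta subunit Kcnab1 and the small-conductance channel Kcnn3. Kcnab1 stood at 2.78, 2.91 and 2.88 FPKM in siScramble and at 4.55, 4.84 and 5.56 FPKM in siDDX1 (1.74-fold, log2 fold change 0.63 ± 0.0924 (SE), adjusted p = 0.00843). Kcnn3 stood at 1.63, 2.23 and 1.91 FPKM in siScramble and at 3.08, 3.49 and 3.23 FPKM in siDDX1 (1.7-fold, log2 fold change 0.55 ± 0.106 (SE), adjusted p = 0.0187). Neither gene's groups overlapped. Both genes also increased in siEXOSC3, with log2 fold changes of 0.73 and 0.93, and both comparisons rest on the same 3 siScramble libraries. Leaving out siScramble replicate 1 or 3 ended both calls in siDDX1, and leaving out siDDX1 replicate 2 ended that of Kcnn3.

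A few K+ channel genes were higher in siDDX1 replicates 1 and 2 and near the controls in replicate 3. Kcnk3 stood at 9.56, 9.86 and 6.40 FPKM, against 5.82 to 7.11 FPKM in siScramble. Kcnj12 stood at 6.22, 6.41 and 4.53 FPKM, against 4.13 to 4.63 FPKM. Kcnh4 stood at 6.40, 6.22 and 3.34 FPKM, against 3.69 to 4.62 FPKM. None of the 3 was called (adjusted p = 0.131, 0.146 and 0.381), and without replicate 3 the log2 fold changes of Kcnk3 and Kcnj12 were 0.57 and 0.43 (adjusted p = 0.00258 and 0.0057). That library was the lowest of its group in 14 of the 32 members and the highest in 12. Over all genes, leaving it out raised the calls from 623 increased and 559 decreased to 1818 and 1709, and its correlations with replicates 1 and 2 (Pearson's r across genes, 0.986 and 0.990) were lower than theirs with each other (0.994). Over the 3 libraries, Kcnma1 was above all controls, at 2.26, 1.85 and 1.47 against 0.911 to 1.34 FPKM (adjusted p = 0.108).

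The Ca2+ channel genes that led in siEXOSC3 had smaller differences in siDDX1. Cacnb1 stood at 7.21, 7.44 and 5.87 FPKM against 5.25 to 5.61 FPKM in siScramble, with a log2 fold change of 0.27 (adjusted p = 0.105). Cacna1b stood at 4.81, 4.82 and 5.14 FPKM against 3.96 to 4.21 FPKM (log2 fold change 0.22, adjusted p = 0.102). Cacnb3 was below its controls, at 14.2, 12.7 and 11.5 against 14.25 to 16.3 FPKM, with the nearest values almost touching (log2 fold change -0.26, adjusted p = 0.0986). The TARP genes Cacng3, Cacng7 and Cacng8 had log2 fold changes of 0.19, 0.14 and -0.11 with overlapping groups. Whether the 2 knockdowns differ in these genes was not tested.

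Na+ channel subunits were not raised in siDDX1. Scn3b stood at 11.5, 13.0 and 12.8 FPKM, below all of its controls at 14.1 to 14.9 FPKM, with a log2 fold change of -0.21 ± 0.0705 (SE) and an adjusted p of 0.0941. It was thus on opposite sides of siScramble in the 2 knockdowns. Scn8a was below siScramble here too, at 4.29, 4.73 and 5.03 against 5.25 to 5.43 FPKM (adjusted p = 0.231). Scn9a had a log2 fold change of 0.01. Grin1 averaged 1.10 ± 0.139 FPKM (SD, n = 3) in siDDX1 and 0.591 ± 0.0474 FPKM (SD, n = 3) in siScramble, its groups were separate, and it was under the filter.

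**Figure D5:**
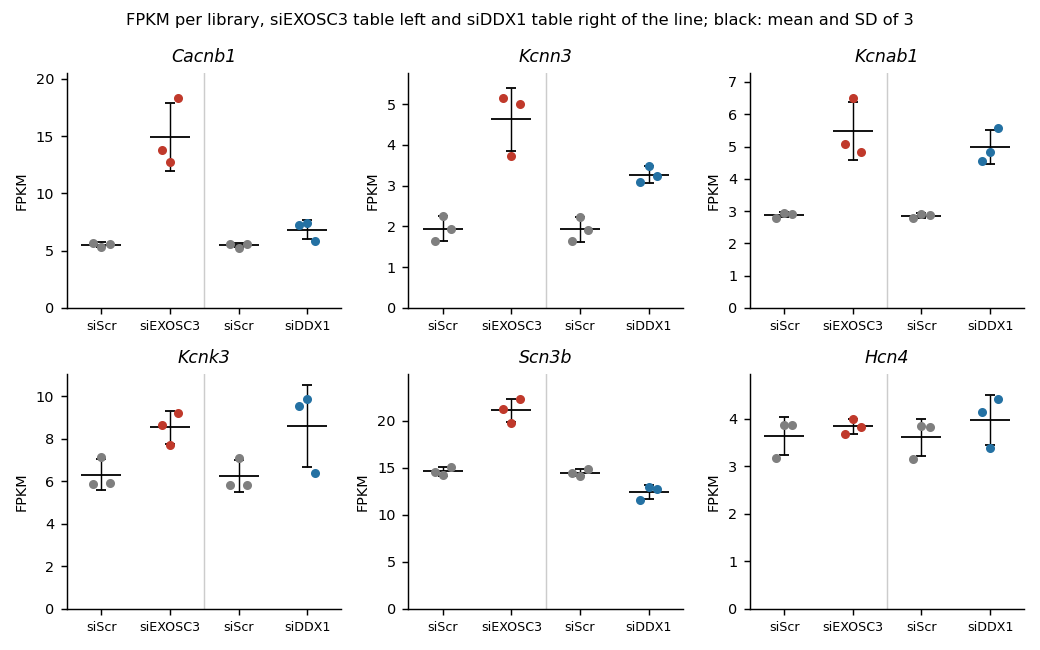
FPKM of 6 members in each library (points) with the mean and SD of 3 libraries (black), siScramble and siEXOSC3 left of the line and siScramble and siDDX1 right of it, on axes that start at 0. Cacnb1, Kcnn3 and Kcnab1 are shown for their increase, Kcnk3 for its low siDDX1 replicate 3 at 6.40 FPKM, Scn3b for lying above the controls in siEXOSC3 and below them in siDDX1, and Hcn4 as a member that overlapped its controls in both.

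The members were compared with 3 lists of related genes. The list of other ion channel families (among them chloride, TRP, purinergic, nicotinic, 5-HT3 and intracellular channels) had 17 of 45 tested genes increased (37.8%) and 6 decreased (13.3%) in siEXOSC3, against 16.7% and 15.7% of all genes. Htr3a, the 5-HT3 receptor, stood at 57.1, 59.2 and 63.5 FPKM in siScramble and at 103, 100 and 111 FPKM in siEXOSC3 (log2 fold change 0.80, adjusted p = 0.000522), and P2rx3 and Trpm2 had log2 fold changes of 0.68 and 0.60. The decreased genes included Pkd2, Clcn7 and Lrrc8a, a polycystin, a lysosomal chloride transporter and a volume-regulated channel subunit (log2 fold changes -0.40, -0.39 and -0.39). The increased count of this list fell to between 8 and 10 without siEXOSC3 replicate 1 or any one of the siScramble libraries, and the decreased count to 3 without siEXOSC3 replicate 1 or siScramble replicate 1 or 3. In siDDX1, 2 of 43 increased (4.65%, against 5.61% of all genes) and 5 decreased (11.6%, against 5.03%). These counts ranged from 0 to 10 and from 0 to 9 as libraries were left out, with the highest values without siDDX1 replicate 3.

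Scaffold and trafficking proteins, which anchor channels and receptors at synapses and axons, had 20 of 40 tested genes increased (50%) and 3 decreased (7.5%) in siEXOSC3, against the same 16.7% and 15.7% of all genes. Apba1, an adaptor of presynaptic Ca2+ channel complexes, stood at 2.26, 3.12 and 2.32 FPKM in siScramble and at 7.65, 6.36 and 10.3 FPKM in siEXOSC3 (log2 fold change 1.34, adjusted p = 0.00161). The AMPA receptor partner Cnih2 and the PSD-93 gene Dlg2 had log2 fold changes of 0.87 and 0.86, and the decreased genes Trak2, Homer3 and Rims2 of -0.45, -0.39 and -0.29. Cnih2 had a siScramble mean of 0.964 FPKM and passed the filter through its level in siEXOSC3 (mean 2.64 FPKM). The 3 decreases came down to 0 or 1 without siEXOSC3 replicate 1 or any one of the siScramble libraries. In siDDX1 the list had 6 of 39 increased (15.4%, against 5.61% of all genes) and 2 decreased (5.13%, against 5.03%), and no call of an increase was left without siDDX1 replicate 2 or siScramble replicate 1 or 3, against 11 without siDDX1 replicate 3.

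REST and its corepressors silence many channel genes in cells that are not neurons, so the complex was listed as well. In siEXOSC3, 1 of 22 tested genes increased, the BAF subunit Smarcc2 (log2 fold change 0.37, adjusted p = 0.0111), and 3 decreased. These are 4.55% and 13.6% of the list, against 16.7% and 15.7% of all genes, so its share of decreases was close to the background. Rest stood at 11.6, 12.9 and 10.8 FPKM in siScramble and at 7.51, 7.51 and 8.46 FPKM in siEXOSC3 (log2 fold change -0.53, adjusted p = 0.00434), and Rcor3 and Smarce1 had log2 fold changes of -0.47 and -0.24. In siDDX1, Rest averaged 9.49 FPKM against 11.7 FPKM (log2 fold change -0.27, adjusted p = 0.0707), and Rcor3 alone decreased (log2 fold change -0.32, adjusted p = 0.018). The decreased count fell to 1 without siEXOSC3 replicate 1 or siScramble replicate 2, the increased count was 2 without siEXOSC3 replicate 2 and 0 without siScramble replicate 1, and of the 6 libraries of the siDDX1 table, siDDX1 replicate 3 was the only one that could be left out without losing the call of Rcor3. The part of Rest in the channel results was not tested.

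Base composition and length were set beside the changes. Exonic G + C content had a median of 57.7% over the 36 tested members with a NCBIM37 gene model, against 50.4% over all genes tested. In the top quartile of genes by G + C (55.3% to 73.1%), 14 of the 21 members increased (22.5% of all genes in that band did), and below it 7 of 15. In the 3 lower bands, from the lowest G + C up, 12.7%, 13.6% and 17.1% of all genes increased. Within the members, the Spearman correlation of G + C content with the log2 fold change was 0.0023 and that of gene length 0.12 (n = 36 genes from the same libraries). With a loess trend on G + C content and length removed from each library, 21 of 36 members increased; Kcnk3 lost its call and 1 other member gained one.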

How the data were processed

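RNA-seq was performed on 9 N2A samples, 3 each of siScramble, siEXOSC3 and siDDX1, and grouped by their titles. Per the submitters' notes, the authors aligned reads to mm9 with TopHat2 version 2.1.0 and ran Cuffdiff version 2.2.1. The authors deposited FPKM per gene and library in 2 tables, 1 per knockdown, each with the same 3 siScramble libraries. The annotation and library normalization given to Cuffdiff are not given in the sources used here. The tables were scaled separately, so each test stays within a table, and absolute depth is unknown, so no counting interval is given.

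FPKM are not counts, so limma (version 3.58.1, R version 4.3.3) was run on log2(FPKM + 1), without covariates and with an intensity trend in eBayes, wherever the mean over 6 libraries reached 1 FPKM. Two-sided p-values were corrected over all genes of a table by the Benjamini-Hochberg method. Exact permutation of 3 against 3 cannot go below p = 0.1. Gene positions and exonic G + C content came from GENCODE vM1 on NCBIM37, promoter windows from RefSeq on GRCm38.p6. Plots were made in matplotlib (version 3.10.9).

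The members, role groups, gene lists and tests were chosen with earlier results of these data known. Some tested members count in the totals but are not reported here. The text names, per role group, up to 3 called members in each direction, members called in both knockdowns, members on opposite sides of siScramble, the highest member of a group, and other tested members where a group is described in full, with up to 3 called genes per list and direction. Grid2ip and the opposite-strand transcripts of Kcnmb4 were set apart from their symbol families after the files had been seen. Results were recomputed with each library left out, with the replicate number as a block, without the intensity trend, with libraries centred on their medians or quantile-normalized, without a filter, with the filter at 5 FPKM, and at a pseudocount of 0.1. A filter on the siScramble mean alone and removal of a loess trend (span 0.3) on G + C content and length were added after seeing the data.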

Additional observations from a re-analysis of the deposited data

Results flagged for a closer look

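The genes Scn3b, Cacna1a and Scn3a lay above all siScramble libraries in siEXOSC3 and below all of them in siDDX1, and the difference between the knockdowns was not tested. Both comparisons share the 3 siScramble libraries. Scn3b had a log2 fold change of 0.499 (adjusted p = 0.00268) in siEXOSC3 and -0.207 (adjusted p = 0.0941) in siDDX1. Cacna1a, a presynaptic Ca2+ channel pore under the filter of 1 FPKM, had a mean 1.26 times that of siScramble in siEXOSC3, at 0.723, 0.797 and 0.859 FPKM against 0.583 to 0.66 FPKM. In siDDX1 its mean was 0.757 times that of siScramble, at 0.512, 0.499 and 0.41 FPKM. Scn3a had a mean 3.42 times that of siScramble in siEXOSC3 and 0.655 times that of siScramble in siDDX1, where it stood at 0.159, 0.136 and 0.0888 FPKM. Cacna1a and Scn3a rest on low values that were not tested.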

How the results depend on the processing

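In siEXOSC3 the increased members numbered 12 of 19 tested at a mean of at least 5 FPKM (63.2%, against 15.7% of all genes), where 9 called members fell under the filter. They numbered 16 to 21 when a library was left out (9.12% to 21.2% of all genes). Under the other alternatives there were 17 to 25, while 10.8% to 17.9% of all genes increased. None decreased under any alternative. In siDDX1 the increased members numbered 5 with no filter (4.13%, against 2.28% of all genes) and 0 at a mean of at least 5 FPKM (6.23% of all genes). They numbered 0 to 8 when a library was left out (0.865% to 16.4% of all genes). The decreased members numbered 1 with no filter, 1 with the G + C and length trend removed, and 0 to 1 when a library was left out. With the replicate number as a block, 20 members increased in siEXOSC3 (54.1%, against 12.4% of all genes) and 4 in siDDX1 (12.5%, against 9.77%), and none decreased. Kcnk3 lost its call in siEXOSC3, and Kcnab2 and Kcnma1 gained one in siDDX1. Samples with the same number did not deviate together in siEXOSC3 (correlations 0.035, -0.31 and -0.13) and only in part in siDDX1 (-0.012, 0.38 and 0.37), so the numbers are not taken to pair samples.

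Fold changes of uncalled members near 0 changed sign. Cacnb3 in siEXOSC3 was 0.0276 with quantile normalization, 0.0201 with centring and from -0.0627 to 0.0304 when a library was left out. With the trend removed, Grik5 was -0.0623 and Kcnh2 -0.00587 in siEXOSC3. Kcnmb4os2 there ranged from -0.334 to 0.0674 when a library was left out. In siDDX1, Cacna1c was 0.0176 with centring and ranged from -0.0376 to 0.036, and Scn9a ranged from -0.0389 to 0.071. No called member reversed. The causes were not tested. Depth limits the members under 1 FPKM, whose values were not tested.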
